A study of Mus musculus with 13 samples.

Results

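The core enzymes of de novo fatty acid synthesis are described here in mouse skin at postnatal day 4 (P4). They are a chosen set of 10 genes, picked by name for their place in the pathway, out of the 49315 genes counted in each library. *Acly* and *Acss2* supply acetyl-CoA, *Me1* supplies NADPH, *Acaca*, *Acacb* and *Fasn* carry out carboxylation and synthesis, and *Hsd17b12*, *Hacd2*, *Hacd3* and *Tecr* serve steps that all rounds of fatty acid elongation share. Total RNA of whole skin was sequenced from 3 WT mice and from 3 littermates labelled as double knockouts (DKO, K14Cre+Kctd1fl/flKctd15fl/fl), all at P4. In the DKO mice a floxed exon of each gene is removed where the keratin 14 promoter drives Cre. That is in keratinocytes of the epidermis and its appendages, so other cells of the skin keep both genes intact. Whether the WT mice carried floxed alleles or Cre was not given in the sources used here. The libraries held between 11263863 and 17643043 counts, and the members between 295 and 11935 counts per library, so all 10 passed the filter on low counts. Epidermis of 3-week-old mice was not analysed here, because its 7 files hold a count of 0 for every gene in the files used here.

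Fatty acids are built in the cytosol from acetyl-CoA. Citrate exported from mitochondria is split by ATP citrate lyase, acetate can be activated by acetyl-CoA synthetase, acetyl-CoA carboxylase makes malonyl-CoA, and fatty acid synthase condenses these units to palmitate with NADPH as reductant. At the endoplasmic reticulum palmitate and longer chains are extended by a cycle of condensation (an ELOVL elongase), reduction (HSD17B12), dehydration (an HACD enzyme) and a further reduction (TECR). In skin this pathway feeds sebum, the barrier lipids of the epidermis and the stored fat of dermal adipocytes, so several cell types of a whole-skin sample express it.

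Of the 10 members, 9 had a lower mean and 1, *Tecr*, a higher mean in the DKO libraries than in the WT libraries. The mean in DKO was 60.1% of that in WT for *Hacd2*, a dehydratase of the elongation cycle, 70.1% for *Hsd17b12*, a reductase of the same cycle, and 79.5% for *Fasn*, the synthase. The median log2 fold change (DKO over WT) of the members was -0.31, beside 0.02 over all 20168 genes tested. No member passed the thresholds of a call, an adjusted p under 0.05 with an absolute log2 fold change over 1, in edgeR's quasi-likelihood test. Of all genes tested, 0.0694% did.

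At an unadjusted p under 0.05, 5 members were lower in DKO (*Hacd2*, *Hsd17b12*, *Acss2*, *Acacb* and *Me1*) and 0 were higher. Among all genes tested, 2.54% were lower at that level and 4.96% were higher. The DKO libraries all lay below the WT libraries for 6 members, those 5 and *Acaca*, where 5.96% of all genes tested did so, and all above them for 0 members, where 7.24% of all genes did so. Both counts and both backgrounds moved with the libraries. Without WT replicate 2, 3 members were lower at an unadjusted p under 0.05 (1.69% of all genes in that fit) and 6 did not overlap (9.48%). Without DKO replicate 2, 7 were lower (5.74%) and 9 did not overlap (14.5%). Run without DKO replicate 1, whose hair follicle and muscle markers stood apart, 5 were lower (2.98%) and 6 did not overlap (10.9%). DESeq2 also placed 0 members past both thresholds (0.783% of the 19663 genes it gave an adjusted p). It gave 1 member, *Hacd2*, an adjusted p under 0.05 at any fold (1.07% of those genes). In the edgeR fit to all 6 libraries the lowest adjusted p of a member was 0.103, that of *Hacd2*.

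**Figure D1:**
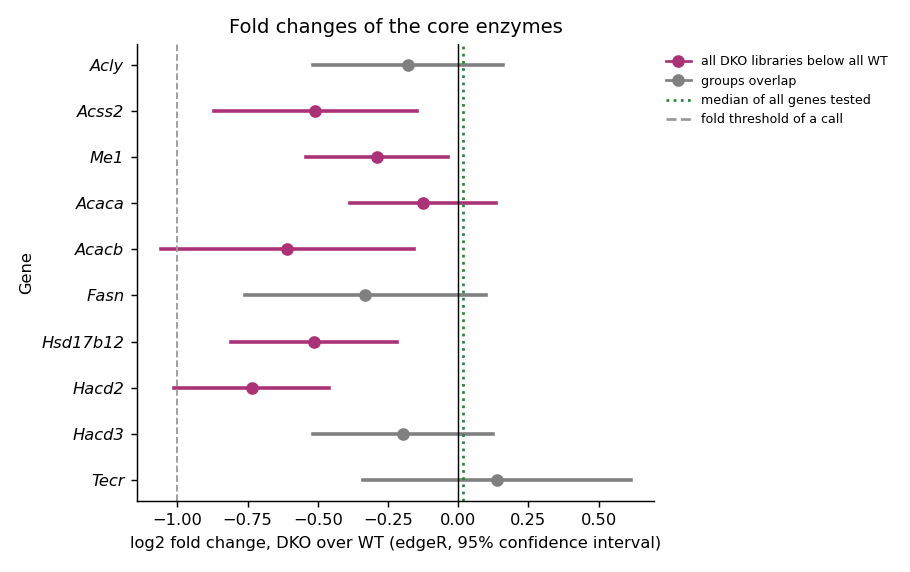
Log2 fold change of each core enzyme, DKO over WT, with its 95% confidence interval from the edgeR fit (3 libraries per group). Points for the 6 members whose DKO libraries all lay below the WT libraries are in purple, the median of all genes (0.02) is dotted, and 9 of the 10 points lie left of 0.

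*Hacd2* had the smallest p of the members and ranked 31 among all 20168 genes tested. It encodes 1 of the 3-hydroxyacyl-CoA dehydratases of the elongation cycle, of which *Hacd3* is another. The promoters of this pair are shown because these paralogs serve the same step and parted in the DKO libraries, and that of *Fasn* because it is the synthase itself. The 250 bases before each start are given 5′ to 3′ (RefSeq, GRCm38.p6), for *Hacd2* at chr16:35022171-35022420 on the plus strand, for *Hacd3* at chr9:65021718-65021967 on the minus strand, and for *Fasn* at chr11:120824548-120824797 on the minus strand. Capitals mark matches to the motifs searched, which were the CCAAT box (CCAAT, bound by NF-Y), the GC box (GGGCGG, bound by Sp1-type factors), the E-box CACGTG, an AP-2 element (GCCNNNGGC) and a sterol regulatory element (TCACNCCAC), on both strands.
Hacd2: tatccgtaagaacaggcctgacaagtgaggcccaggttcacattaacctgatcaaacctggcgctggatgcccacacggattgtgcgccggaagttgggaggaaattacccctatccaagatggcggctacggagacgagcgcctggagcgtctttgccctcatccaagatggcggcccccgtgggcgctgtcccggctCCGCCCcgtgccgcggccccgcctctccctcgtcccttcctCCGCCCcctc
Hacd3: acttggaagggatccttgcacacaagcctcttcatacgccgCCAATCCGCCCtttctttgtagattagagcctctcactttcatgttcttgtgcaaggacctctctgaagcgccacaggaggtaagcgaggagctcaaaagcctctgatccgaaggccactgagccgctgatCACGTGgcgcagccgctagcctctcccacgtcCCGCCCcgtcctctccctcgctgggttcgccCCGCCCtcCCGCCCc
Fasn: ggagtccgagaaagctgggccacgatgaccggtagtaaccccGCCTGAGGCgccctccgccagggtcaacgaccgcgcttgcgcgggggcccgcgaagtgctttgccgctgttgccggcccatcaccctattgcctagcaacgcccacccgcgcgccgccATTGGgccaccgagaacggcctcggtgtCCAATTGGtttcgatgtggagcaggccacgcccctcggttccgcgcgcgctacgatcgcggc

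Both dehydratase promoters held GC boxes, *Hacd2* 2 and *Hacd3* 4, all on the opposite strand. *Hacd3* also held a CCAAT box 209 bases before the start and the E-box 78 bases before it, neither of which was found in the window of *Hacd2*. *Fasn* held 3 CCAAT boxes, beginning 90, 62 and 59 bases before the start, the last 2 of which overlap, and 1 AP-2 element at 208 bases. The wider windows of RefSeq, which run from 250 bases before to 50 after the start, matched all 10 members with 11 windows, since *Me1* has 2. A CCAAT box was in 8 of these 11 windows and in 37.4% of all 32851 windows of that length. A GC box was in 7 of 11 and in 35.7% of all, an AP-2 element in 4 of 11 (*Acss2*, *Acacb*, *Acly* and *Fasn*) and in 16.6%, the E-box in 1 of 11 and in 7.15%. The sterol regulatory element as spelled was in 0 of 11 and in 1.24% of all, which says only that these letters are not in those windows. The AP-2 motif was searched because KCTD1 and KCTD15 are known as inhibitors of AP-2 factors. Of its 4 genes, *Acss2* and *Acacb* had groups that did not overlap and *Acly* and *Fasn* had groups that did. The paper reports that loss of a single copy of AP-2 genes in keratinocytes left the DKO skin defects unrescued. The part of AP-2 factors in the member values was not tested.

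For *Hacd2* (ENSMUSG00000035376, GRCm38 chromosome 16, 35022421 to 35109175, plus strand) the normalized counts in WT replicates 1 to 3 were 1408, 1446 and 1425. The DKO replicates, in the same order, had 858, 928 and 783. The WT libraries lay within a narrow band and every DKO library lay far below it, with means of 1426 ± 19.5 (SD, n = 3) and 856 ± 72.1 (SD, n = 3). The log2 fold change was -0.74 (SE 0.12, 95% confidence interval -1.01 to -0.46), at an unadjusted edgeR p of 0.000159 and an adjusted p of 0.103. The adjusted p crossed 0.05 with the choice of fit and library. It was 0.000369 with DESeq2, 0.00397 in edgeR without the filter on low counts, 0.0283 without DKO replicate 2, and between 0.423 and 0.605 when a WT library was left out, with log2 fold changes from -0.79 to -0.67 over all 14 alternatives.

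*Hsd17b12* (ENSMUSG00000027195, chromosome 2, 94032689 to 94157964, minus strand) encodes the 3-ketoacyl-CoA reductase that serves every elongase. Its normalized counts ran 1808, 1659 and 1628 over the WT libraries and 1324, 1040 and 1205 over the DKO libraries. The groups did not overlap. The log2 fold change was -0.51 (SE 0.13, 95% confidence interval -0.81 to -0.22), at an unadjusted edgeR p of 0.00327 and an adjusted p of 0.298. Across the alternatives its adjusted p ranged from 0.0962 to 0.978.

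The other 2 shared-step genes had groups that overlapped. *Hacd3* (ENSMUSG00000033629, chromosome 9, 64986983 to 65021693, minus strand) had normalized counts of 1145, 985 and 986 in WT and 773, 947 and 998 in DKO, so that DKO replicate 3 lay between WT libraries. Its log2 fold change was -0.20 (95% confidence interval -0.52 to 0.13, adjusted edgeR p of 0.893), and -0.11 without DKO replicate 1. *Tecr* (ENSMUSG00000031708, chromosome 8, 83571698 to 83607971, minus strand), the trans-2-enoyl-CoA reductase that closes the cycle, had 2981, 3276 and 2953 in WT and 2542, 4734 and 2855 in DKO. DKO replicate 2 lay above every WT library and the other two DKO libraries below every WT library. The log2 fold change of *Tecr* was 0.14 (95% confidence interval -0.34 to 0.61, adjusted edgeR p of 0.953), and without DKO replicate 2 it was -0.18, so its sign rests on that library.

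**Figure D2:**
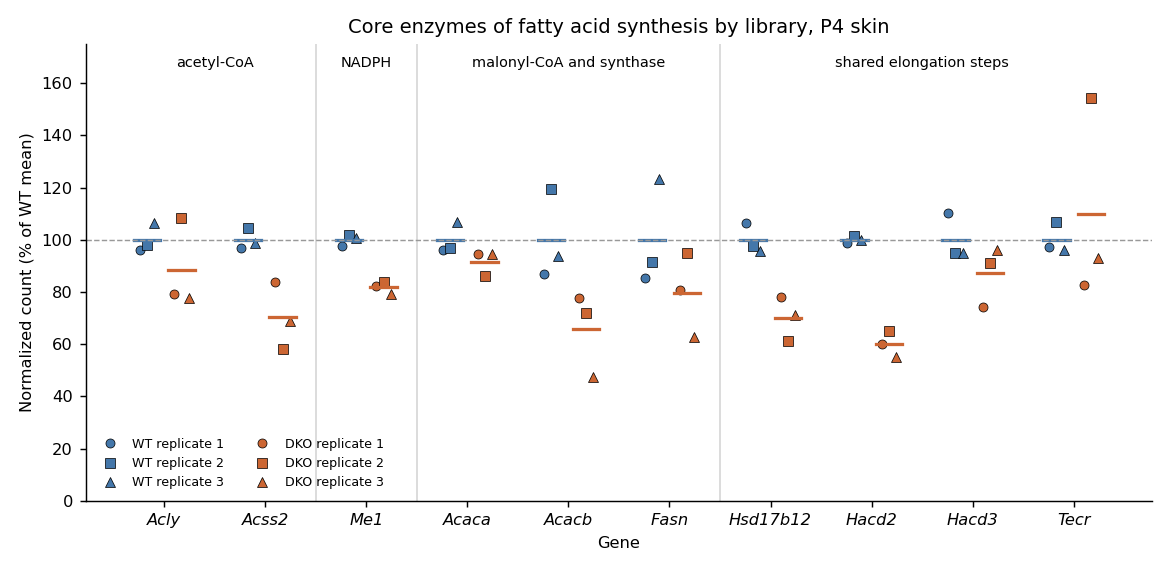
Normalized count of each core enzyme in each library as a percentage of the mean of the 3 WT libraries, with symbols for replicates and lines for group means, ordered by role. *Hacd2* lies between 54.9% and 65.0% in the 3 DKO libraries, whereas for *Tecr* and *Acly* DKO replicate 2 is the only DKO library above 100%.

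Of the genes that supply acetyl-CoA and NADPH, *Acss2* and *Me1* had groups that did not overlap and *Acly* did not separate. *Acss2* (ENSMUSG00000027605, chromosome 2, 155517948 to 155585724, plus strand), the cytosolic and nuclear acetyl-CoA synthetase, had normalized counts of 541, 585 and 552 in WT and 469, 325 and 386 in DKO. Its log2 fold change was -0.51 (SE 0.16), at an unadjusted edgeR p of 0.0108 and an adjusted p of 0.423. *Acss2* shares 395 exonic bases with *Gss*, 335 with *Acss2os* and 197 with *Ggt7*, all on the opposite strand, out of 10163. Whether counting used strand was not given in the sources used here, so reads from those stretches cannot be told apart. *Me1* shares 30 exonic bases with *A330041J22Rik* on the opposite strand.

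*Me1* (ENSMUSG00000032418, chromosome 9, 86581371 to 86695953, minus strand), the cytosolic malic enzyme, varied little within its groups. Its normalized counts were 1505, 1575 and 1555 in WT and 1274, 1297 and 1223 in DKO, with means of 1545 ± 36.0 (SD, n = 3) and 1265 ± 37.7 (SD, n = 3). The difference was small beside that of *Hacd2*, with a log2 fold change of -0.29 (95% confidence interval -0.54 to -0.04), an unadjusted edgeR p of 0.0296 and an adjusted p of 0.566. *Acly* (ENSMUSG00000020917, chromosome 11, 100476353 to 100528000, minus strand) had 3375, 3442 and 3740 in WT and 2785, 3812 and 2729 in DKO. DKO replicates 1 and 3 lay below every WT library and DKO replicate 2 above every one. Its log2 fold change was -0.18 (95% confidence interval -0.52 to 0.16, adjusted edgeR p of 0.910) and it ran from -0.35 without DKO replicate 2 to -0.09 without DKO replicate 3.

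The 3 genes of carboxylation and synthesis were all lower on average, by different amounts. *Fasn* (ENSMUSG00000025153, chromosome 11, 120805846 to 120824547, minus strand), the synthase, had the highest normalized counts of the members, 7085, 7581 and 10211 in WT and 6712, 7861 and 5210 in DKO. WT replicate 3 was far above the other WT libraries, and DKO replicate 2 lay among them. Its log2 fold change was -0.33 (SE 0.19, 95% confidence interval -0.76 to 0.10), at an unadjusted edgeR p of 0.116 and an adjusted p of 0.810. It was -0.17 without WT replicate 3, -0.19 without DKO replicate 3 and -0.47 without DKO replicate 2. The difference was within the spread between these libraries.

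*Acaca* and *Acacb* encode the acetyl-CoA carboxylases, of which the cytosolic product of *Acaca* is known to feed synthesis and the mitochondrial product of *Acacb* to restrain fatty acid oxidation. *Acaca* (ENSMUSG00000020532, chromosome 11, 84129672 to 84401651, plus strand) had normalized counts of 3815, 3848 and 4244 in WT and 3753, 3414 and 3747 in DKO. The groups touched without overlapping, and the log2 fold change was -0.13 (95% confidence interval -0.39 to 0.13, adjusted edgeR p of 0.921), and -0.08 without DKO replicate 2. *Acacb* (ENSMUSG00000042010, chromosome 5, 114146535 to 114250761, plus strand) had 1024, 1406 and 1105 in WT and 915, 846 and 559 in DKO. Its log2 fold change was -0.61 (SE 0.20), at an unadjusted edgeR p of 0.0134 and an adjusted p of 0.458. Both groups of *Acacb* were spread widely, with SDs of 201 and 189 around means of 1178 and 773.

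Counted by library, all 10 members lay below every WT library in DKO replicate 1, 7 in DKO replicate 2 and 9 in DKO replicate 3. Among all genes tested, 33.3%, 32.2% and 27.9% lay below every WT library in DKO replicates 1, 2 and 3. The median member stood at 80.1% of the WT mean in DKO replicate 1, 85.0% in replicate 2 and 74.3% in replicate 3, and between 96.9% and 99.6% in the WT libraries. The exceptions in DKO replicate 2 were *Acly*, *Fasn* and *Tecr*, and the exception in DKO replicate 3 was *Hacd3*.

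Levels of different genes were compared as RPKM, read counts scaled for exon length and library size. *Tecr* was the highest in WT skin, at 92.1 ± 5.36 (SD, n = 3). *Fasn* (49.8 ± 10.1), *Hsd17b12* (46.4 ± 2.63) and *Acly* (43.8 ± 2.42) came next, and neighbours among these 3 overlapped between libraries. *Me1*, *Hacd2* and *Hacd3* followed at 26.4, 26.0 and 25.2 RPKM and also overlapped. Below them were *Acaca* at 15.3, *Acacb* at 8.04 and *Acss2* at 3.62 RPKM, none of which overlapped with its neighbour in WT. In DKO skin *Tecr* stayed first at 101 ± 35.6 (SD, n = 3) and *Acss2* last at 2.55, while *Hsd17b12* at 32.5 stood behind *Acly* at 38.7, with overlapping libraries. *Hacd2* at 15.6 RPKM overlapped there with *Acaca* and no longer with *Me1* at 21.6.

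**Figure D3:**
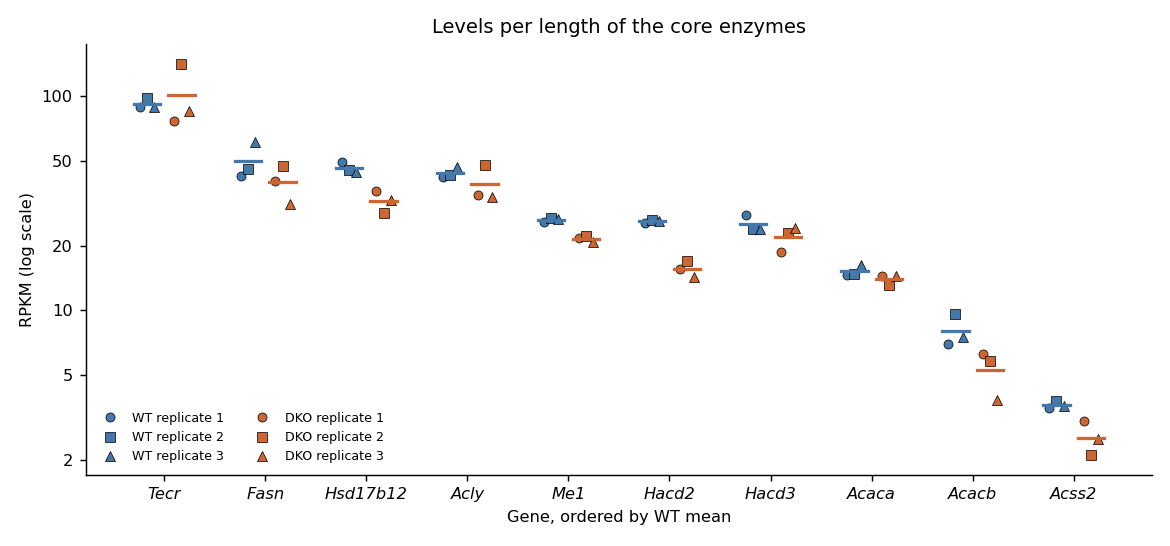
RPKM of each core enzyme in each library on a log axis, ordered by the WT mean, with lines for group means. *Hacd2* sits level with *Me1* and *Hacd3* in the WT libraries (26.0 RPKM) and near *Acaca* in the DKO libraries (15.6 RPKM).

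The balance within each pair of paralogs was then read as a ratio of RPKM in each library. *Hacd2* stood at 0.925, 1.10 and 1.09 times *Hacd3* over the WT libraries and at 0.835, 0.736 and 0.590 times *Hacd3* over the DKO libraries. *Acacb* stood at 0.476, 0.648 and 0.461 times *Acaca* in WT and at 0.432, 0.439 and 0.265 times in DKO. Both ratios were lower in each DKO library than in each WT library, with an exact two-sided permutation p of 0.1 for either of the 2 pairs, the smallest that 3 against 3 libraries can give. The remaining HACD paralogs were named after their values were seen. *Hacd1*, the muscle-enriched dehydratase, had a log2 fold change of 0.61 (unadjusted edgeR p of 0.0142, adjusted p of 0.463) and *Hacd4* one of -0.19 (adjusted p of 0.907).

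Genes whose profile over the 6 libraries was most like that of *Fasn* were looked up among the 12329 other genes tested with a mean normalized count of at least 100. The measure was the root-mean-square difference of log2 profiles, each centred on its own mean. The closest were *Ovca2* at 0.09, *B9d1* at 0.09, *Aacs* at 0.11, *Pgd* at 0.11 and *Tmem14c* at 0.11. *Aacs* encodes acetoacetyl-CoA synthetase, which activates a ketone body for lipid synthesis, and *Pgd* encodes the NADPH-producing phosphogluconate dehydrogenase. For *Ovca2* and *B9d1*, which were closer, and for *Tmem14c* no lipid role is given here. A role shared with *Fasn* was not tested. *Aacs* had normalized counts of 805, 830 and 926 in WT and 656, 796 and 547 in DKO, with the same high WT replicate 3 and low DKO replicate 3 as *Fasn*. Of the members, *Acly* was nearest to *Fasn* (rank 69 at 0.17) and *Me1* next (rank 399 at 0.22), while *Tecr* was farthest (rank 6343 at 0.35).

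Other genes of fatty acid metabolism were read from 7 lists, in which 107 of the 111 genes present were tested. In all, 1 gene, the elongase *Elovl6*, was called, as were 0.0694% of all genes tested. At an unadjusted edgeR p under 0.05, 12 of the 107 were lower and 5 higher in DKO. Among all genes tested, 2.54% were lower and 4.96% higher at that level, shares to set beside each list count below. The elongases and elongation paralogs, which work in the same cycle as the shared-step members, had 4 of 8 genes lower and 1 higher at that level, with a median log2 fold change of -0.40. *Elovl6*, which extends palmitate, had normalized counts of 7853, 8602 and 6724 in WT and 1901, 3041 and 2401 in DKO. Its log2 fold change was -1.66 (SE 0.18) and an adjusted edgeR p of 0.0155, and the call was lost when any WT library or DKO replicate 3 was left out. *Elovl5* (log2 fold change of -0.61, adjusted p of 0.168), for polyunsaturated chains, and *Elovl4* (-0.80, 0.168), for very long chains, did not pass after adjustment.

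The desaturases had 3 of 10 genes lower and 1 higher at an unadjusted p under 0.05, with a median of -0.18. *Scd1*, which makes oleate and palmitoleate, had a log2 fold change of -1.31 (adjusted edgeR p of 0.0617), its sebaceous paralog *Scd3* one of -2.37 (0.199) and *Degs2*, a sphingolipid desaturase, one of 0.83 (0.274). Further genes for acetyl-CoA and NADPH supply were split, with 2 of 21 lower and 2 higher and a median of 0.01. Among them, *Slc25a1*, the carrier that exports citrate to ATP citrate lyase, had normalized counts of 877, 869 and 941 in WT and 522, 847 and 491 in DKO (log2 fold change of -0.53, adjusted p of 0.549). The mitochondrial malic enzymes *Me2* (-0.41, 0.611) and *Me3* (0.84, 0.637) lay on opposite sides. In the edgeR fit to all 6 libraries no desaturase or supply gene passed after adjustment. The paper, which used DESeq2, names *Elovl6* and *Scd1* among the genes downregulated in P4 DKO skin. *Scd1* was called in 8 of the alternatives, among them DESeq2 (log2 fold change of -1.32, adjusted p of 2.65e-08), and *Scd3* in 5, among them DESeq2 (-2.40, 0.0498).

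Regulators of lipogenesis had 1 of 24 genes lower and 0 higher, with a median of 0.09. The lower one was *Insig1*, a target and brake of SREBP processing, with normalized counts of 1752, 1682 and 1722 in WT and 872, 1441 and 1190 in DKO (log2 fold change of -0.56, adjusted edgeR p of 0.422). *Insig2* (-0.31, 0.673) and *Prkaa2*, a catalytic subunit of AMPK (0.57, 0.769), followed. In fatty acid activation and glycerolipid synthesis 2 of 19 were lower and 0 higher with a median of -0.03, led by the acyl-CoA synthetase *Acsl5* (-0.55, 0.251), the triglyceride enzyme *Dgat2* (-0.31, 0.582) and *Agpat4* (0.37, 0.677). Mitochondrial fatty acid synthesis, which runs a separate set of enzymes, had 0 of 9 lower and 0 higher with a median of -0.05 (*Acsf3* -0.18, *Lias* -0.11 and *Oxsm* -0.13). Mitochondrial oxidation had 0 of 16 lower and 1 higher with a median of 0.00, where *Cpt1b*, the muscle form of the carnitine transferase, had a log2 fold change of 1.15 (adjusted p of 0.281), *Acadl* 0.31 and *Hadh* -0.14.

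**Figure D4:**
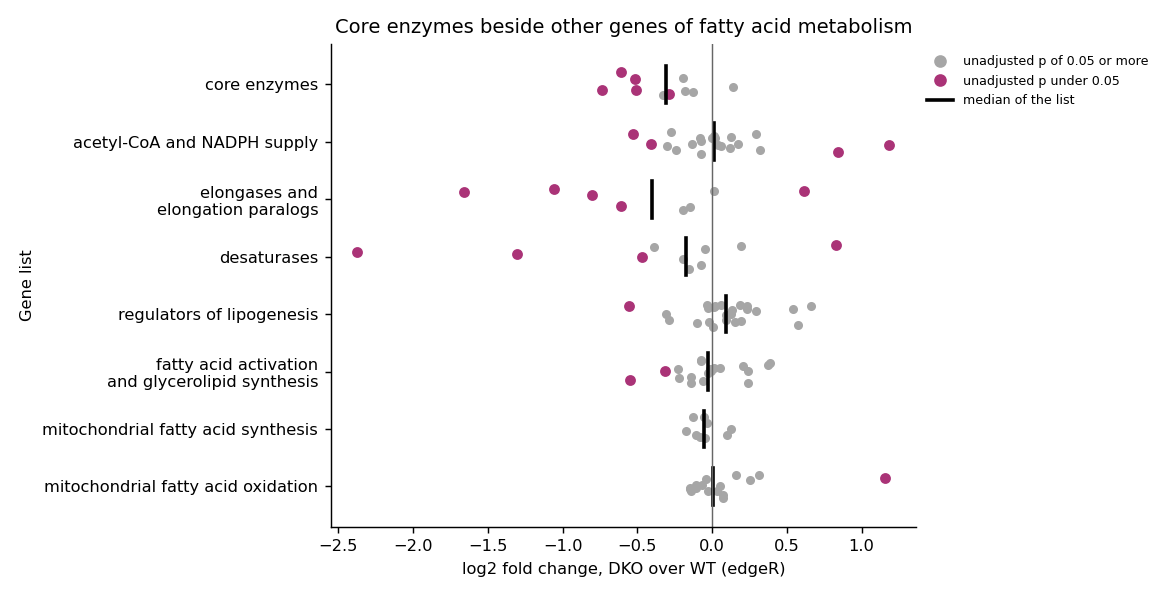
Log2 fold change (DKO over WT) of every tested gene in the core set and in 7 other lists of fatty acid metabolism, 1 point per gene, with black lines for list medians and purple for an unadjusted edgeR p under 0.05. The core enzymes (median -0.31) and the elongases (median -0.40) lie mostly left of 0, while mitochondrial synthesis and oxidation are centred near it.

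Markers of the cell types in whole skin moved as well, and in these bulk samples fewer cells of a type and less RNA per cell cannot be told apart. The summed levels (CPM, counts scaled for library size) of the sebaceous gland list were 1789, 1821 and 1558 in WT and 976, 1590 and 1191 in DKO, with 9 of 19 genes lower at an unadjusted p under 0.05 and 0 higher. The hair follicle list summed to 15174, 15249 and 13331 CPM in WT and 5556, 13856 and 10073 in DKO (3 of 15 lower, 0 higher). The skeletal muscle list summed to 6918, 6017 and 6272 CPM in WT and 21149, 9693 and 9950 in DKO (13 of 16 higher, 0 lower), so DKO replicate 1 stood apart in both. The adipocyte list, for the other lipogenic tissue of skin, summed to 1890, 1949 and 2762 CPM in WT and 3832, 2120 and 1811 in DKO (3 of 19 higher, 0 lower). That sum was highest in DKO replicate 1, where *Fasn* stood at 80.9% of its WT mean, and highest among the WT libraries in replicate 3, where *Fasn* stood at 123%.

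The place of the sebaceous sum of DKO replicate 2 beside WT depended on *Krt79*, at 6382 normalized counts there against 3836 ± 697 (SD, n = 3) in WT. Of the 19 genes tested, 4 had a positive log2 fold change, *Krt79* among them, and only *Krt79* was dropped. *Krt79*, the most abundant gene of the list per length, was left out after the values were seen. Without it the list summed to 1507, 1546 and 1359 CPM in WT and 801, 1170 and 957 in DKO. Every DKO library then lay below WT, whereas with *Krt79* DKO replicate 2 lay within the WT range. In DKO replicates 1, 2 and 3, 15, 9 and 15 of the 19 genes of the full list lay below every WT library. For the hair follicle list these numbers were 14, 4 and 11 of 15 genes. Without its most abundant gene, *Krt71*, that list summed to 11213, 11440 and 9795 CPM in WT and 4121, 10814 and 7732 in DKO. There DKO replicate 2 lay within the WT range. *Hacd2* stood at 60.2%, 65.0% and 54.9% of its WT mean in the same 3 libraries, *Hsd17b12* at 77.9%, 61.2% and 71.0%, and *Acss2* at 83.9%, 58.2% and 69.1%. The part of cell composition in the values of the 10 members was not tested.

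**Figure D5:**
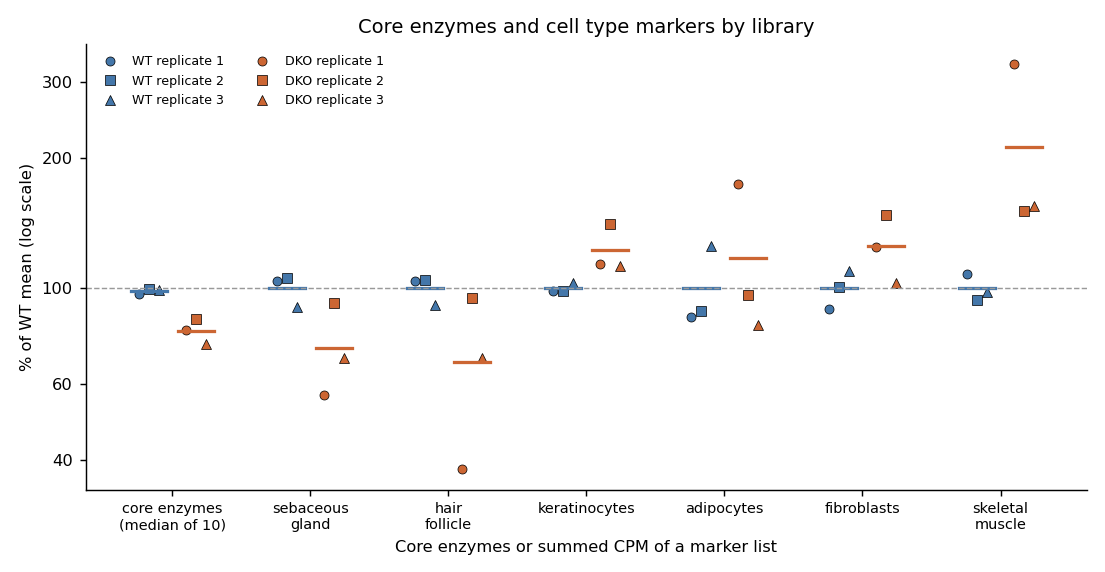
Median of the 10 core enzymes (each as a percentage of its WT mean) and summed CPM of 6 marker lists as a percentage of the WT mean, by library, on a log axis, with lines for group means. The core enzymes stand between 74.3% and 85.0% in the DKO libraries, and DKO replicate 1 lies apart in the hair follicle, adipocyte and muscle sums.

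The keratinocyte list had 2 of 16 genes lower and 2 higher at an unadjusted p under 0.05, and its sum ran from 9265 to 9692 CPM in WT and from 10612 to 13283 CPM in DKO. Dermal fibroblasts (2 of 12 higher), endothelium (1 of 8 higher) and macrophages and mast cells (2 of 10 higher) had 0 genes lower at that level. The most abundant genes per length were *Krt10*, *Krt1* and *Krt5* for keratinocytes, *Krt71*, *Krt25* and *Tchh* for hair follicles, *Krt79*, *Mgst1* and *Fa2h* for sebaceous glands, and *Car3*, *Fabp4* and *Cfd* for adipocytes, and no gene of any list was at 0 in all 6 libraries. *Xist* was high in 1 library of each genotype. The floxed genes had normalized counts of 745 ± 15.5 (*Kctd15*) and 432 ± 19.0 (*Kctd1*) in WT and 1321 ± 189 and 742 ± 240 in DKO (SD, n = 3). A count over the whole gene takes in exons outside the deleted part and other cell types, so it checks nothing about the deletion, which the study's methods describe as examined by exon.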

How the data were processed

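The deposited files give counts, whole-number read counts per gene without normalization, which the authors made from rRNA-depleted paired-end libraries with a NEBNext Ultra II kit. The submitters' processing notes name Trimmomatic 0.36, STAR 2.5.2b and featureCounts of Subread 1.5.2, and the coordinates are those of GRCm38. How counting treated strand and reads with several matches was not given in the sources used here. Samples were grouped by the genotype and age in their labels, with 1 library per mouse. Symbols matched 99.3% of gene identifiers.

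In R 4.3.3, edgeR 4.0.16 was run with filterByExpr, TMM scaling and the quasi-likelihood F test over 20168 genes, with Benjamini-Hochberg adjustment. The thresholds (adjusted p under 0.05, absolute log2 fold change over 1) follow the study's methods, which name DESeq2 (version 1.42.0, run as an alternative). The model had genotype as its only term. A normalized count is the count scaled to the mean effective library size. RPKM uses the same effective sizes and merged exon length. The standard error is the fold change divided by the square root of F, and the interval uses the test's degrees of freedom. The fit was tested on simulated data with known changes. Those changes were all larger than the member changes, so the simulation does not show how well changes of the members' size are detected.

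The 10 members and the lists were chosen with earlier results of these data known. The genes named were all members, the 3 genes with the smallest p in each of 7 pathway lists, the 3 most abundant per length (and any at 0) of the marker lists, and the 5 closest in profile to Fasn. Hacd1 and Hacd4 were added after their values were seen. For the muscle list only counts and sums are printed, and for the dermal fibroblast, endothelial and macrophage lists only counts. Of the sebaceous list, 2 of 20 genes are also in a pathway list. Alternatives were DESeq2, RLE factors, total counts, no filter, a minimum of 10 counts, a block on the title number, library sizes without muscle or adipocyte markers, no fold threshold, and each library left out. Marker sums without the most abundant gene were added after seeing the data. Intervals and p-values cover the spread between these libraries.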

Additional observations from a re-analysis of the deposited data

How the results depend on the processing

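Over 14 alternatives, 139 of the 140 member log2 fold changes kept their direction and stayed uncalled, and 1 changed sign, *Tecr* at -0.18 without DKO replicate 2 (-0.18 to 0.29 with 1 library left out). The number of members called was 0 in each alternative. Dropping the fold threshold alone left it at 0, but *Hacd2* had an adjusted p under 0.05 with DESeq2, without the filter on low counts and without DKO replicate 2. With 1 library left out, 3 to 7 members were lower at an unadjusted p under 0.05 (3 without WT replicate 2). In those fits 350 to 1195 of all genes were lower at that level, out of 20676 to 20828 tested. The number of members whose groups did not overlap was 6 to 9 (9 without DKO replicate 2, where 14.5% of all genes lay lower in every DKO library). Of all genes in those fits, 1842 to 3019 lay lower in every DKO library. With total counts 5 members did not overlap, where 1454 of 20168 genes lay lower in every DKO library. The median log2 fold change of the members lay between -0.38 (without WT replicate 1) and -0.27 with 1 library left out.

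The number of pathway list genes called was 1 (*Elovl6*) in the edgeR fit to all 6 libraries, where 14 of all genes tested were called. It was 5 with DESeq2 (154 of all genes), 5 without the filter on low counts (210) and 2 with RLE size factors (16). It was 2 with total counts (22), 2 with library sizes without skeletal muscle genes (21), and 0 to 4 with 1 library left out (2 to 36). Calls over all genes thus moved with the setting too. *Scd1* was called in 8 of these alternatives, *Scd3* in 5, *Elovl3* in 3 and *Cpt1b* in 2. The cause was not tested. Titles carry the number 40972 (1 WT, 1 DKO) or 47347 (2 and 2), whose meaning the labels do not give. With it as a replicate block, 3 pathway list genes and 0 members were called, and 35 genes were called in all, against 14 without it. In that fit 5 members were lower at an unadjusted p under 0.05, as were 641 of all 20168 genes, against 512 without the block. Each library's deviations from its group mean correlated best with a library of the other genotype that had its own number. The best matches reached 0.14 to 0.22 across genes, a hint from the data and not from the design. WT replicate 1 with DKO replicate 2, and WT replicate 2 with DKO replicate 3, also share 47347 and correlated at -0.01 each. *Xist* was high in WT replicate 1 and DKO replicate 3. The best matches within 47347 thus also shared sex, and the part of sex was not tested. Within number 40972, which sets DKO replicate 1 against WT replicate 3, all 10 members were lower in DKO. That count adds nothing, since all 10 lay below every WT library in DKO replicate 1. Within 47347, 9 of 10 were lower, *Tecr* being the exception at 0.28. Several of these were near 0 on the log2 scale, with *Acly* at -0.06, *Acaca* at -0.10, *Hacd3* at -0.13 and *Fasn* at -0.17. The share of all genes lower within each number was not computed, so neither count can be read as a result about the members. *Hacd2* stood at -0.73 within 40972 and at -0.74 within 47347 on the log2 scale.

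There were 3 libraries per group, and the common biological coefficient of variation was 20.02%. In the edgeR fit to all 6 libraries no member difference was detected after adjustment. This held for *Acaca* and *Acly*, and also for *Hacd2* at -0.74 and *Acacb* at -0.61 on the log2 scale.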
